A study of Homo sapiens with 12 samples.

Results

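Small nucleolar RNA (snoRNA) host genes are transcribed, spliced and, in these cases, translated into no known protein, while snoRNAs are released from their introns. The 10 genes described here were taken by symbol from a list of spliced non-coding hosts (GAS5, SNHG1, SNHG5, SNHG6, SNHG7, SNHG8, SNHG12, SNHG15, SNHG16 and ZFAS1), and all 10 had a row in the table of 58233 genes. Expression was measured by RNA sequencing of polyadenylated RNA in HL-60 cells, an established human acute myeloid leukaemia line of wild-type label, after 3 h. The 4 groups were untreated cells, cells given 100 nM ATRA (all-trans retinoic acid, a ligand of the retinoic acid receptors), cells given 500 nM palbociclib (which blocks CDK4 and CDK6, kinases of the cell cycle) and cells given both at these doses. Each group had 3 libraries, and nothing in the labels says that they came from separate cultures, so the errors measure the spread between these libraries, which may be technical. The line is a single cancer line, and the results describe these cultures.

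Box C/D snoRNAs guide the methylation of ribose in ribosomal RNA, and box H/ACA snoRNAs guide the change of uridine to pseudouridine. In such hosts the snoRNA typically lies in an intron and is released after splicing, whereas the joined exons leave the nucleus as a long non-coding RNA. Several such hosts, GAS5 the best known among them, carry a run of pyrimidines at the transcription start, a feature shared with genes of ribosomal proteins, and their spliced RNA is degraded by nonsense-mediated decay when ribosomes engage it. The level of a host in polyadenylated RNA thus reflects the spliced exons and not the snoRNAs themselves.

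The sequence around the transcription start is shown for the 3 hosts with the most negative log2 fold changes after ATRA and for the 2 hosts with the most positive ones after the combination, because the pyrimidine run is the feature these genes are known for. Each stretch runs 5′ to 3′ from 30 bases before the start listed by RefSeq, and capitals mark the longest run of C and T that begins within 30 bases of it. In SNHG1 another run of the same length, tctcccc, lies upstream of the start and is not marked. The promoter windows on GRCh38.p14 are chr11:62855836-62856135 (minus strand) for SNHG1, chr1:28581824-28582123 (minus) for SNHG12, chr17:76557514-76557813 (plus) for SNHG16, chr4:118278512-118278811 (plus) for SNHG8 and chr20:49278392-49278691 (plus) for ZFAS1.
SNHG1: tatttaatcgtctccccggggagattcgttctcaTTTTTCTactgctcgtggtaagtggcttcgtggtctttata
SNHG12: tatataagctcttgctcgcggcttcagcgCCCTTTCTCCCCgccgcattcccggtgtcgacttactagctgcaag
SNHG16: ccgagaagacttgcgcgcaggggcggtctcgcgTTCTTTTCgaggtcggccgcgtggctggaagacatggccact
SNHG8: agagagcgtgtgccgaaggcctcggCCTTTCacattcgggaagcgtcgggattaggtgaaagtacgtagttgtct
ZFAS1: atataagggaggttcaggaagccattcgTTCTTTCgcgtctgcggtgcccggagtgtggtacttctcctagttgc

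The run was 12 bases long in SNHG12, 8 in SNHG16, 7 in SNHG1 and ZFAS1 and 6 in SNHG8. A run at least as long was found at 6.19% of all 35116 listed starts for 12 bases, at 24.5% for 8 bases, at 35% for 7 bases and at 50.5% for 6 bases. SNHG7 had 11 bases (8.67% of starts). GAS5 had 5 bases, but the start listed for it lies at position -1056 relative to the start of its canonical transcript in GENCODE v44. For SNHG12 the listed start lies 1113 bases downstream of the canonical one. SNHG6 and SNHG15 are named only, as the promoter table covered 8 of the 10 hosts.

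The whole promoter windows of these 8 hosts were also searched on both strands for 6 motifs, and no matches overlapped each other. TATAAA, the letters of a core promoter element, was present in SNHG1 and SNHG7 and in 11.5% of all promoters. In SNHG7 it lay upstream of the listed start on the strand of the gene. In SNHG1 it lay downstream of the listed start on the other strand, which is not the place of that element. The E-box CACGTG was found in SNHG7 (7.26% of all promoters) and TCTCGCGA in SNHG16 (1.15%). AGGTCA, the core element of nuclear receptor sites, occurred in the window listed for GAS5 (13.8%), all of which lies upstream of the start of its canonical transcript. Neither the ETS core CCGGAAG (10.3%) nor the E2F-type letters TTTGGCGC (0.652%) were found in these windows. Only these exact letters were searched, so variants of either element may be present. A match describes letters only and was not tested as a binding site.

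Values are RPKM, in which reads are scaled to the length of the gene and the size of the library. They were deposited as whole numbers, so levels of different genes are comparable per length, with a step of 1. The values of a library summed to 358455 to 390247 over all genes, and the depth of each library is unknown. Of 8 myeloid markers 7 passed the filter on low values and the 8 together summed to 1514 to 1998 RPKM, while 11 markers of T cells, B cells, erythroid cells and hepatocytes summed to 0 to 1, with 10 of them at 0 in every library. In the treated groups the libraries numbered 1 stood apart. Among all tested genes 17.9% to 18.9% had the same whole number in library 1 and another library of its group, against 30.5% to 36.5% for libraries 2 and 3. Host calls for ATRA and for the combination against untreated cells are given with and without the libraries numbered 1. The correlations, shares of the spread and snoRNA percentages below were not computed without them.

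All 10 hosts passed the filter, which required at least 5 RPKM in at least 3 libraries and left 7820 genes. Mean levels in untreated cells were 94.3 ± 7.64 RPKM for ZFAS1, 82 ± 7.94 for SNHG8, 69 ± 11.4 for SNHG1, 66.7 ± 6.81 for GAS5 and 54 ± 3.61 for SNHG6 (SD, n = 3). The other 5 were lower, with SNHG5 at 23 ± 2, SNHG12 at 20.7 ± 4.04, SNHG16 at 16 ± 1, SNHG7 at 13.7 ± 2.08 and SNHG15 at 13.3 ± 1.53 RPKM. Neighbours in this order overlapped in their libraries except for GAS5 above SNHG6 and SNHG6 above SNHG5. SNHG15 still exceeded 51.5% of all tested genes in untreated cells, and ZFAS1 exceeded 93.5%.

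**Figure D1:**
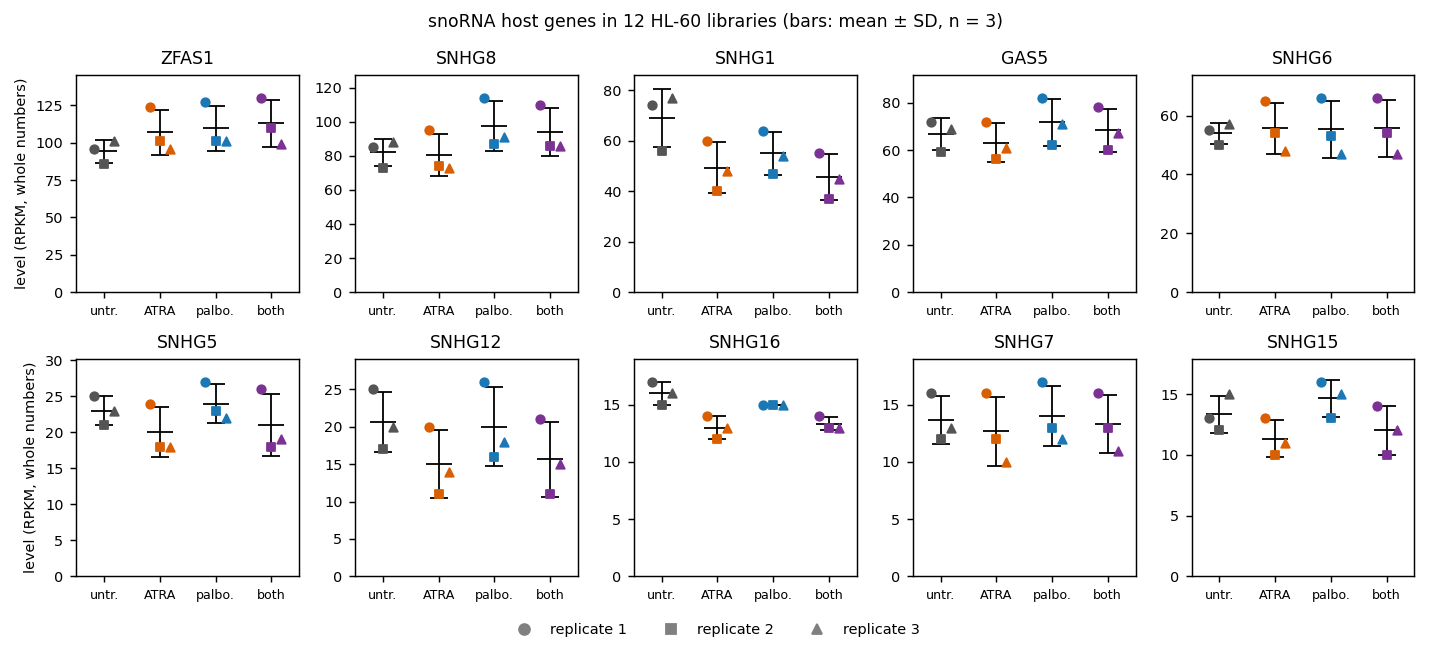
Level of each snoRNA host gene (vertical axis, RPKM as whole numbers, starting at 0) in the 4 groups of HL-60 cells, with 1 symbol per library by replicate number and bars for the mean ± SD (n = 3). SNHG16 lies between 12 and 14 in all ATRA libraries and between 15 and 17 in all untreated ones, and circles (replicate 1) top the treated groups in 9 of the 10 panels.

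Of the hosts of box C/D snoRNAs, SNHG1 on chromosome 11 (ENSG00000255717, positions 62851978 to 62855953, minus strand, 11 exons in the canonical transcript) holds entries of SNORD22, SNORD25, SNORD26, SNORD27, SNORD28 and SNORD30. It measured 74, 56 and 77 RPKM in untreated cells, 60, 40 and 48 with ATRA, 64, 47 and 54 with palbociclib and 55, 37 and 45 with both. The 3 combination libraries lay below every untreated one, whereas the ATRA and palbociclib groups overlapped the untreated group through the untreated library at 56.

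SNHG16 on chromosome 17 (ENSG00000163597, 76557727 to 76670985, plus strand, 4 exons) is host to SNORD1A, SNORD1B and SNORD1C. Its level was 17, 15 and 16 RPKM in untreated cells, 14, 12 and 13 with ATRA, 15 in each palbociclib library and 14, 13 and 13 with both. Libraries with ATRA, alone or combined, all lay below the untreated ones, by few rounding steps.

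ZFAS1 on chromosome 20 (ENSG00000177410, 49278178 to 49299600, plus strand, 5 exons) carries SNORD12, SNORD12B and SNORD12C. The level in the untreated libraries was 96, 86 and 101 RPKM, in the ATRA libraries 124, 101 and 96, in the palbociclib libraries 127, 101 and 101 and in the combination libraries 130, 110 and 99. Each treated group thus overlapped the untreated one, with its library 1 far above. It shares 249 bases with ZNFX1 on the other strand (20 to 27 RPKM in the 12 libraries), and as the use of strand is not stated, reads in the shared part cannot be assigned to one gene.

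GAS5 on chromosome 1 (ENSG00000234741, 173858559 to 173868882, minus strand, 12 exons) is the classic host of many box C/D snoRNAs, none of which was analysed here. Untreated libraries gave 72, 59 and 69 RPKM, ATRA 72, 56 and 61, palbociclib 82, 62 and 71 and the combination 78, 60 and 67. The groups overlapped throughout.

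SNHG5 (ENSG00000203875, chromosome 6, 85650491 to 85678932, minus strand, 6 exons, host of SNORD50B) measured 25, 21 and 23 RPKM untreated, 24, 18 and 18 with ATRA, 27, 23 and 22 with palbociclib and 26, 18 and 19 with both. SNHG6 (ENSG00000245910, chromosome 8, 66920561 to 66926398, minus strand, 3 exons, host of SNORD87) measured 55, 50 and 57 RPKM untreated, 65, 54 and 48 with ATRA, 66, 53 and 47 with palbociclib and 66, 54 and 47 with both. The 3 treated groups of SNHG6 were almost the same library by library, while those of SNHG5 were lower with ATRA in libraries 2 and 3 and stood near the untreated level in library 1.

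The hosts of box H/ACA snoRNAs were SNHG7, SNHG8 and SNHG15. SNHG8 (ENSG00000269893, chromosome 4, 118278703 to 118285316, plus strand, 3 exons, host of SNORA24) gave 85, 73 and 88 RPKM untreated, 95, 74 and 73 with ATRA, 114, 87 and 91 with palbociclib and 110, 86 and 86 with both. Library 1 of each treated group and palbociclib library 3 were above all untreated libraries, and the groups overlapped. SNHG7 (ENSG00000233016, chromosome 9, 136721366 to 136728184, minus strand, 6 exons, host of SNORA17A and SNORA17B) ranged from 10 to 17 RPKM over the 12 libraries, and SNHG15 (ENSG00000232956, chromosome 7, 44983019 to 44986961, minus strand, 3 exons, host of SNORA9, which GENCODE v44 places inside an exon of the canonical transcript) from 10 to 16. SNHG15 averaged 11.3 ± 1.53 RPKM with ATRA and 14.7 ± 1.53 with palbociclib, and SNHG7 12.7 ± 3.06 and 14 ± 2.65 (SD, n = 3).

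SNHG12 (ENSG00000197989, chromosome 1, 28578538 to 28583132, minus strand, 6 exons) is a mixed host, with SNORA16A, SNORA44 and SNORA61 of the H/ACA class and SNORD99 of the C/D class. It measured 25, 17 and 20 RPKM untreated, 20, 11 and 14 with ATRA, 26, 16 and 18 with palbociclib and 21, 11 and 15 with both. Within each number the libraries with ATRA were below the untreated one, but the spread between numbers was as wide as the difference and the groups overlapped.

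The comparison of ATRA with untreated cells asks which genes responded to the retinoid within 3 h. SNHG16 fell, with a log2 fold change of -0.30 (SE 0.07, adjusted p = 0.0113, limma with Benjamini-Hochberg adjustment over all tested genes), with mean levels of 16 ± 1 RPKM in untreated and 13 ± 1 RPKM in treated libraries (SD, n = 3). It was the only host called, and 1 of 10 compares with 11.6% of all tested genes called lower and 8.71% called higher. SNHG16 was also the only host whose groups did not overlap, as was the case with lower values for 17.3% of tested genes. In bulk RNA, a lower level in every cell and fewer cells with the RNA cannot be told apart. The call was lost when medians were scaled to each other (adjusted p = 0.0963), when only the 6 libraries compared were fitted (0.0560) and without ATRA library 2 (0.0512).

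Larger but more variable differences were measured for SNHG1, with a log2 fold change of -0.49 (SE 0.19, limma adjusted p = 0.0969), and for SNHG12 at -0.49 (SE 0.28, adjusted p = 0.262). Without ATRA library 1, SNHG1 passed the threshold. SNHG15 (-0.23), SNHG5 (-0.21), SNHG7 (-0.13), GAS5 (-0.08) and SNHG8 (-0.03) gave negative values, and SNHG6 (0.03) and ZFAS1 (0.18) positive values, none of which passed. Thus 8 of 10 hosts had a negative log2 fold change, against 51.9% of tested genes, and their median was -0.17 against -0.01 over all tested genes.

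Palbociclib against untreated cells asks what the kinase inhibitor alone changed. No host passed the test, where 3.16% of tested genes were called lower and 0.908% higher. SNHG1 gave the most negative value, -0.32 (SE 0.19, limma adjusted p = 0.435), followed by SNHG16 at -0.09 (SE 0.07). The most positive were SNHG8, at 0.24 (SE 0.14, adjusted p = 0.438), and ZFAS1, at 0.21 (SE 0.13, adjusted p = 0.459). Here 3 of 10 hosts had a negative log2 fold change, against 46.7% of tested genes, and the median was 0.04 against 0 over all tested genes.

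In cells given both compounds, 2 hosts fell against untreated cells. The level of SNHG1 was 69 ± 11.4 RPKM without and 45.7 ± 9.02 RPKM with both compounds (SD, n = 3), which gave a log2 difference of -0.60 (SE 0.19, limma adjusted p = 0.0358). SNHG16 had 16 ± 1 RPKM without and 13.3 ± 0.58 RPKM with both compounds, and its log2 difference was -0.26 (SE 0.07, limma adjusted p = 0.0159). Of all tested genes 17.7% were called lower and 12.7% higher, so 2 of 10 lower is close to the background. SNHG1 and SNHG16 were also the 2 hosts whose libraries did not overlap, as was the case with lower values for 20.6% of tested genes.

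SNHG1 missed the threshold with the filter at 1 RPKM (limma adjusted p = 0.0765), with no filter (0.0805), with scaled medians (0.0671), with a fit of only the libraries compared (0.0753) and without combination library 2 (0.132) or 3 (0.0866), untreated library 1 (0.119) or 3 (0.116), ATRA library 3 (0.0513) or palbociclib library 3 (0.0542). SNHG16 missed it with scaled medians (0.192) and without untreated library 1 (0.0605), combination library 2 (0.0528) or combination library 3 (0.0529). SNHG12 stood at -0.43 (SE 0.28, adjusted p = 0.280), and ZFAS1 had the most positive value at 0.25 (SE 0.13, adjusted p = 0.174), followed by SNHG8 at 0.19 (SE 0.14). The median of the 10 hosts was -0.09 against -0.0074 over all tested genes, with 6 of 10 negative against 51.2%.

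**Figure D2:**
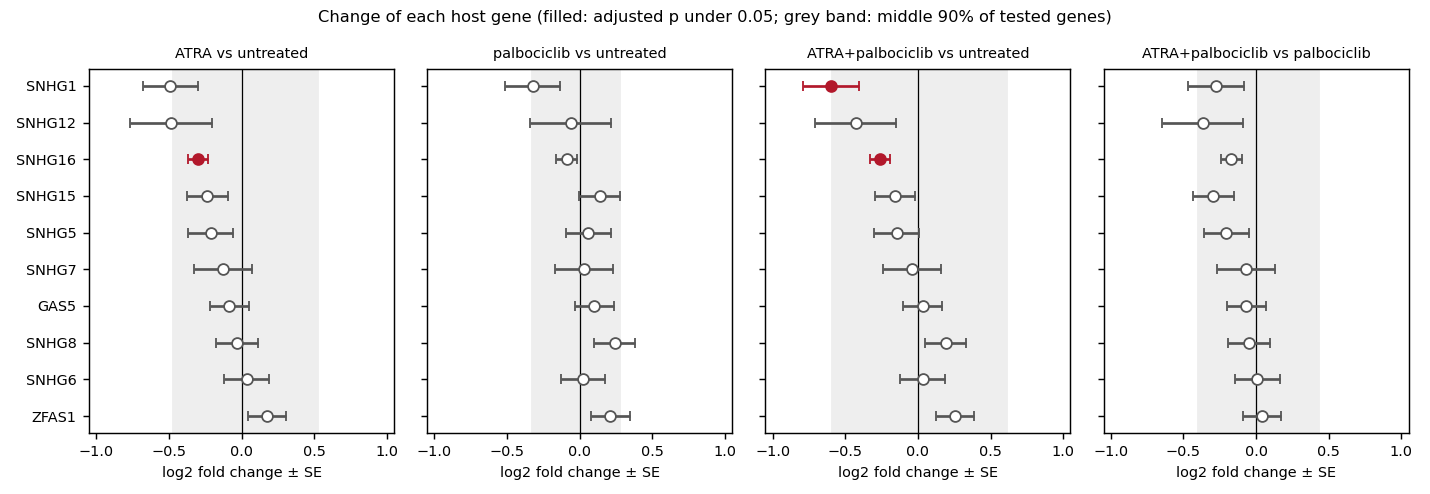
Log2 fold change of each host gene (horizontal axis, points with SE bars from the fit over all 12 libraries) in 4 comparisons, with filled points for an adjusted p under 0.05 and a grey band for the middle 90% of the 7820 tested genes. SNHG16 is filled in the ATRA panel (-0.30) and, with SNHG1 (-0.60), in the combination panel, while ZFAS1 lies on the positive side in all panels.

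The addition of palbociclib to ATRA moved no host past the threshold, with 0.115% of tested genes called lower and 0% higher (243 lower and 44 higher at an unadjusted p under 0.05). Values ran from -0.11 for SNHG1 (SE 0.19) to 0.22 for SNHG8 (SE 0.14). With the replicate number as a block, which these groups share, 0 hosts passed, against 0.639% of tested genes lower and 0.0128% higher.

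The addition of ATRA to palbociclib likewise gave no call without the block, where 6.64% of tested genes were called lower and 5.86% higher. With the block, 4 hosts fell, against 13.4% of tested genes lower and 10.1% higher. SNHG12 fell by 0.37 on the log2 scale (SE 0.07, limma adjusted p = 0.00588), with libraries at 21, 11 and 15 RPKM against 26, 16 and 18. The blocked value for SNHG1 was -0.28 (SE 0.07, adjusted p = 0.0198), for SNHG15 -0.30 (SE 0.08, adjusted p = 0.0314) and for SNHG16 -0.17 (SE 0.05, adjusted p = 0.0322). Without the block the adjusted p of these 4 was 0.514, 0.461, 0.238 and 0.160 in the same order. In 7 of 10 hosts all 3 combination libraries were below the palbociclib library of their number, the exceptions being SNHG6, SNHG7 and ZFAS1, and the same held for 23% of tested genes.

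The departure from additivity, which is the change by palbociclib in ATRA-treated cells less its change without ATRA, was called for no host and for 0% of tested genes in either direction (154 higher and 82 lower at an unadjusted p under 0.05). Values ran from -0.13 for ZFAS1 (SE 0.19) to 0.21 for SNHG1 (SE 0.27), so departures of this size were within the error. The comparisons against untreated cells share the untreated libraries and are not independent of each other.

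Much of the spread of the hosts in treated cells went with the library number rather than the compound. Over the 9 treated libraries, the number accounted for a median of 76.6% of the sum of squares of the log2 level in the 10 hosts and the treatment for 22%, compared with medians of 53.0% and 25% over the 7782 tested genes that varied. Library 1 was the highest of its group in all 3 treated groups for 9 of 10 hosts. SNHG6 was the extreme, with 99.6% for the number and 0.0663% for the treatment, followed by ZFAS1 (93.6% for the number) and SNHG7 (91.3%).

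SNHG16 showed the opposite division, with 69.7% for the treatment and 17.4% for the number, and SNHG15 was nearly even at 49.7% and 47.6%. What the number marks is not given in the sources used here. Without the 4 libraries numbered 1, SNHG1 had a limma adjusted p of 0.0593 in the combination against untreated cells, while SNHG16 kept its call. In ATRA against untreated cells 2 hosts then passed in place of 1, SNHG16 and SNHG5 (adjusted p = 0.0218). Without the libraries numbered 2 or 3, no host passed in either comparison, and SNHG16 had an adjusted p of 0.0762 and 0.154 for ATRA. For the combination, SNHG5 passed in 1 of 26 alternatives (adjusted p = 0.0261).

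**Figure D3:**
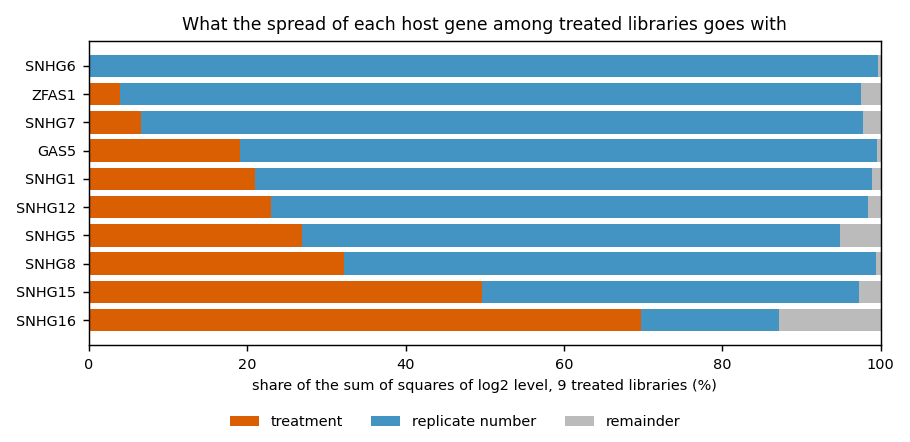
Share of the sum of squares of each host gene's log2 level (horizontal axis, %) over the 9 treated libraries that went with the treatment, the replicate number or neither, as stacked bars that sum to 100%. The number takes from 17.4% in SNHG16 to 99.6% in SNHG6.

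The hosts varied together within groups. The deviations from the group means were positively correlated in 45 of 45 pairs over the 12 libraries, with a median Pearson r of 0.85, from 0.51 for SNHG7 with SNHG15 to 0.98 for GAS5 with SNHG1. These points share libraries and thus depth and library composition, and the values are given as a description. Taking the level over all 12 libraries, SNHG5 followed the mean of the other hosts most closely (r = 0.96) and ZFAS1 least (r = 0.53).

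Outside the list, the 5 tested genes closest to the mean profile of the hosts were FAM207A (r = 0.98), KARS (0.97), TRIAP1 (0.97), METTL5 (0.97) and TIMM17A (0.96), over 12 libraries. KARS, the lysyl-tRNA synthetase, measured 99.7 ± 3.21 RPKM in untreated cells, 94.3 ± 7.51 with ATRA, 99.3 ± 4.51 with palbociclib and 95 ± 6.93 with both (SD, n = 3). METTL5, a methyltransferase of ribosomal RNA, measured 18.3 ± 1.15, 16.3 ± 2.31, 18.3 ± 2.52 and 16.3 ± 2.31 RPKM.

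GENCODE v44 lists 26 snoRNA entries inside the hosts, all of which had a row of their own in the table. Only 4 were above 0 in any library, and 3 passed the filter, SNORD12B and SNORD12C in introns of the canonical ZFAS1 transcript and SNORD99 in one of SNHG12. Mature snoRNAs have no poly(A) tail, so these libraries are not made to measure them, and on genes of 74 to 91 bases 1 RPKM stands for few reads. Each entry at 0 in every library overlapped an exon of some host transcript, from 1 transcript for SNORD12 to 29 for SNORD25. Of the entries above 0, SNORD99, SNORD12C and SNORD1B overlapped 0 such transcripts and SNORD12B overlapped 1. Whether reads in shared stretches were left uncounted was not tested. The search of the annotation returned 0 entries inside GAS5, so rows of its snoRNAs were not looked up. The sequences of the 3 that passed are shown, as they carry the only tested values among the 26 entries. Capitals mark the C box letters TGATGA where an exact match preceded by A or G was found and the last CTGA, the letters of the D box. SNORD12B lies at chr20:49280319-49280409 (plus strand), SNORD12C at chr20:49278940-49279028 (plus) and SNORD99 at chr1:28578749-28578822 (minus) on GRCh38.
SNORD12B: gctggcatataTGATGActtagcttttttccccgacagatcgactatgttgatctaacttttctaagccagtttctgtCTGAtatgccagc
SNORD12C: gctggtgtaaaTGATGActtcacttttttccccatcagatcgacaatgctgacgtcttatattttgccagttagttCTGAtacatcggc
SNORD99: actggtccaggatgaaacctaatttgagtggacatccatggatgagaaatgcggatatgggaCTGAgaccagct

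**Figure D4:**
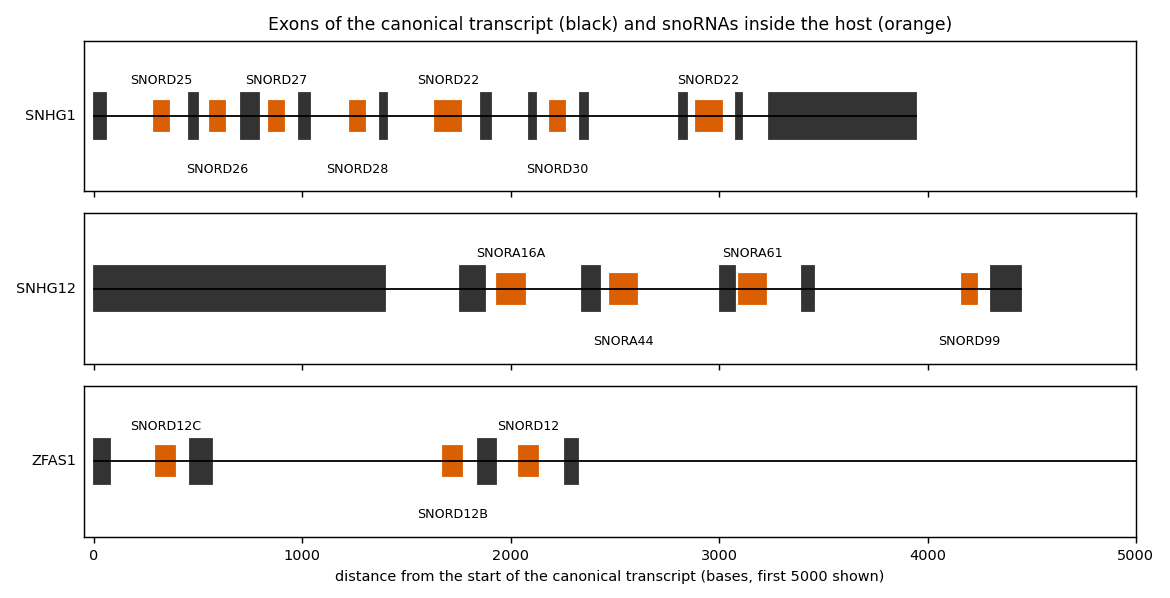
Exons of the canonical transcript (black) and snoRNA entries (orange) of SNHG1, SNHG12 and ZFAS1, drawn to scale by distance in bases from the start of that transcript, of which the first 5000 are shown. Every snoRNA entry drawn lies between exons.

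SNORD12B measured 24, 14 and 22 RPKM in untreated cells, 15, 11 and 15 with ATRA, 16, 13 and 20 with palbociclib and 17, 11 and 10 with both. SNORD12C measured 13, 11 and 11 RPKM untreated, 8, 3 and 7 with ATRA, 8, 4 and 13 with palbociclib and 8, 2 and 8 with both. The ATRA and combination libraries of SNORD12C all lay below the untreated ones, as was the case for 17.3% and 20.6% of tested genes. ZFAS1, the host, averaged 107 ± 14.9 RPKM with ATRA and 113 ± 15.7 with both against 94.3 ± 7.64 in untreated cells. In both treated groups its library 1 was the highest (124 and 130 RPKM), and each group overlapped the untreated one. As a percentage of the ZFAS1 level, SNORD12C went from 12.4% ± 1.37 in untreated cells to 5.57% ± 2.29 with ATRA, 7.71% ± 4.62 with palbociclib and 5.35% ± 3.21 with both (SD, n = 3). For SNORD12B the percentage was 21.0% ± 4.41, 12.9% ± 2.46, 15.1% ± 4.08 and 11.1% ± 1.75 in the same order.

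SNORD99 measured 8, 6 and 5 RPKM untreated, 5, 1 and 3 with ATRA, 5, 3 and 5 with palbociclib and 4, 1 and 4 with both, or 30.8% ± 5.26 of the SNHG12 level in untreated cells and 18.3% ± 8.81 with both (SD, n = 3). None of the 3 passed the test in the fit without a block. The log2 fold change after the combination was -0.66 for SNORD12B (SE 0.25, limma adjusted p = 0.0741), -1.18 for SNORD12C (SE 0.57, adjusted p = 0.143) and -1.26 for SNORD99 (SE 0.59, adjusted p = 0.138). Among all genes 851 rows were snoRNAs, of which 124 were above 0 in some library and 12 passed the filter. After the combination 10 of these 12 had a negative log2 fold change, against 51.2% of all tested genes. Their median was -0.69 against -0.0074, with large errors for several of these low rows. With ATRA and with the combination 1 of 12 was called lower, where 11.6% and 17.7% of all tested genes were. It was SNORD100, which lies outside the hosts and was named after its values were seen. It was lower with ATRA, by -1.50 (SE 0.44, limma adjusted p = 0.0334), and with both, by -2.50 (SE 0.44, adjusted p = 0.00159).

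**Figure D5:**
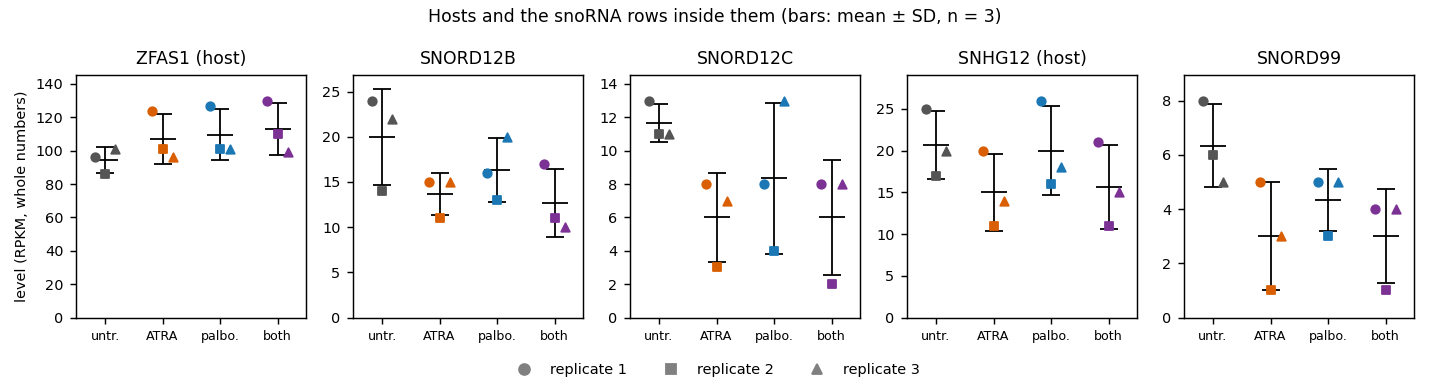
Level (vertical axis, RPKM as whole numbers, starting at 0) of ZFAS1, of SNORD12B and SNORD12C inside it, of SNHG12 and of SNORD99 inside it, in the 4 groups, with 1 symbol per library and bars for the mean ± SD (n = 3). SNORD12C lies between 11 and 13 in untreated cells and between 3 and 8 with ATRA, where ZFAS1 lies between 96 and 124.

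Other genes of the snoRNA pathway were taken from fixed lists. Of 21 further non-coding hosts 7 passed the filter, and 0 of them passed the test without a block in any of the 6 comparisons. Among all tested genes 11.6% were called lower and 8.71% higher with ATRA, and 17.7% and 12.7% with the combination. SNHG17 came closest after the combination, at -0.50 (SE 0.19, limma adjusted p = 0.0667), a size similar to SNHG1 and SNHG12, and was named after its values were seen. SNHG29, the most abundant of them, averaged 131 RPKM without treatment and 147 RPKM with both compounds. With the replicate number as a block, SNHG17 was called lower for ATRA (limma adjusted p = 0.0239) and for the combination (0.00601). SNHG29 was called higher for the combination (0.0157). For ATRA the block called 20.7% of tested genes lower, and for the combination 25.5% lower and 19.8% higher. The numbers were not shown to pair these libraries.

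Protein-coding hosts moved in both directions. Of 27 tested, 4 fell and 1 rose with ATRA, where 11.6% of all tested genes were called lower and 8.71% higher. With the combination 7 fell and 3 rose, where 17.7% were called lower and 12.7% higher, and with palbociclib 0 passed. After the combination HSPA8, a chaperone, fell by 0.69 on the log2 scale (SE 0.19, limma adjusted p = 0.0169). WDR43, a factor of the small ribosomal subunit, fell by 0.65 (SE 0.06, adjusted p = 3.7e-05), NOP56 by 0.51 (SE 0.12, adjusted p = 0.00742) and the import receptor IPO7 by 0.48 (SE 0.13, adjusted p = 0.0164).

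The proteins that bind and assemble snoRNAs had 17 of 17 members tested. With ATRA 7 fell and 0 rose (11.6% of all tested genes lower and 8.71% higher), with the combination 7 fell and 0 rose (17.7% and 12.7%), and in the combination against palbociclib 5 fell and 0 rose (6.64% and 5.86%). After the combination NAF1, an assembly factor of box H/ACA particles, went from 6.33 to 3.33 RPKM with a log2 fold change of -0.92 (SE 0.13, limma adjusted p = 0.000437). NUFIP1, an assembly factor of box C/D particles, had a log2 fold change of -0.77 (SE 0.15, adjusted p = 0.00337), and SHQ1, which chaperones dyskerin, of -0.58 (SE 0.08, adjusted p = 0.000309). NOP56, a core protein of box C/D particles and itself a host, is counted in both lists, as are NOP58 and DKC1. The median of the list was -0.19 after the combination and -0.02 after palbociclib.

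Of the factors of nonsense-mediated decay 9 of 10 were tested. SMG9 rose with ATRA (0.29, SE 0.06, limma adjusted p = 0.00694), and with the combination SMG9 and UPF3A rose. UPF3A then had a log2 fold change of 0.22 (SE 0.07, adjusted p = 0.0484) and SMG9 of 0.29 (SE 0.06, adjusted p = 0.00476). Of 78 tested genes of cytosolic ribosomal proteins, which also begin with a pyrimidine run, 0 passed with ATRA or palbociclib and 4 rose with the combination, RPL3, RPL10A, RPL12 and RPL13A, with log2 fold changes of 0.23 to 0.32, a smaller share than the 12.7% of all tested genes called higher. Their median was 0.12 with ATRA, 0.11 with palbociclib and 0.18 with both, and 2 of 78 were negative in each, whereas the snoRNA host genes had medians of -0.17, 0.04 and -0.09.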

How the data were processed

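HL-60 libraries were prepared from polyadenylated RNA (TruSeq) and sequenced by Illumina, and per the labels HISAT2, HTSeq and hg38 were used. The authors counted reads per gene and deposited a score per gene, RPKM rounded to whole numbers, without pooling of replicates. The use of strand, gene lengths, annotation version and depth of each library are not given in the sources used here, so rounding and unknown depth limit low values. The rounded values were not treated as counts. Group means were estimated by a linear model with limma 3.58.1 in R 4.3.3 on log2(value + 0.1) of genes with at least 5 in at least 3 libraries, over all 12 libraries (eBayes with trend), and a gene was called at a Benjamini-Hochberg adjusted p under 0.05 within a comparison. Log2 fold changes refer to value + 0.1 and slightly understate changes of low genes. Errors are SD over 3 libraries or SE of the fit.

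The members, lists, filter and tests were chosen with earlier results of these data known. The named genes were all 10 hosts, at most 4 called genes per list by size of change after the combination, the 5 genes most like the mean host profile, and snoRNA rows inside a host. The fit was tested on simulated data with 200 of 7820 genes changed in ATRA against untreated cells. It recovered 0 of 200 at a log2 change of 0.25, 103 at 0.5 and 182 at 1, with 0, 5 and 11 false calls. Host changes of about 0.25 that did not pass are thus not shown to be absent. Same-numbered libraries deviated together with r of 0.438 to 0.908 between treated groups, so the numbers pair these, and 0.0453 to 0.367 between untreated and treated groups, where not every pair exceeded 0.1. Gene positions and snoRNA sequences are from GENCODE v44 (GRCh38), promoters from RefSeq (GRCh38.p14). Alternatives were pseudocount, filter, threshold, scaling, the libraries fitted, the block by replicate number and leaving out libraries. Tables and plots used Python 3.11.15. Columns of the table left unused numbered 0. Some results on single genes outside the hosts are not reported here.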

Additional observations from a re-analysis of the deposited data

How the results depend on the processing

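No called host gene changed direction in any of 1570 alternatives of the host gene values. Of these, 1517 kept their side of the threshold, 29 lost a call and 24 gained one. Most alternatives were of values not called at the outset, and 110 such values changed sign without being called. The called results were less stable. For the combination SNHG1 lost its call in 14 of 26 alternatives and SNHG16 in 8 of 26, and for ATRA SNHG16 lost it in 7 of 26. In ATRA against untreated cells 1 host was called, and 0 with a threshold of 0.001, with scaled medians or with only the libraries compared. In the combination against untreated cells 2 were called, and 1 with the filter at 1 RPKM, with no filter or with only the libraries compared, and 0 with a threshold of 0.001 or scaled medians. Leaving out libraries, singly or the 4 of 1 number, gave 0 to 2 hosts for ATRA, 0 to 2 for the combination and 0 to 2 for the combination against palbociclib. The causes were not tested.

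With the replicate number as a block, 4 hosts were called for ATRA against untreated cells (SNHG1, SNHG5, SNHG12 and SNHG16, all lower), 1 for palbociclib (SNHG1, lower) and 4 for the combination (SNHG1, SNHG12 and SNHG16 lower, ZFAS1 higher), but the numbers were not shown to pair these libraries. The block also raised the calls over all genes, from 1590 to 2767 for ATRA, from 318 to 1066 for palbociclib and from 2377 to 3538 for the combination. With the block and a threshold of 0.001, chosen after seeing the data, 1 host was called for the combination and 1 for ATRA (SNHG1 in both). With the block all 3 tested snoRNAs inside the hosts were called lower, for ATRA (SNORD12B 0.0477, SNORD12C 0.0398 and SNORD99 0.0310, limma adjusted p) and for the combination (0.0154, 0.0206 and 0.0273). The block gave 4 for the combination against palbociclib. A block in a fit of the 9 treated libraries alone, also chosen after seeing the data, gave 6 there and 2 for the combination against ATRA (GAS5 and SNHG8, higher). Over all alternatives, calls among all genes ran from 369 to 2767 for ATRA, 18 to 1066 for palbociclib, 629 to 3538 for the combination, 0 to 179 against ATRA, 232 to 2774 against palbociclib and 0 to 150 for additivity.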

Other observations

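SNHG17, SNHG1 and SNHG12 were the 3 non-coding hosts with the most negative log2 fold changes after the combination, at -0.50, -0.60 and -0.43, whereas ZFAS1, at 0.25, SNHG8, at 0.19, and SNHG29, at 0.16 (SE 0.10), had the most positive ones. Of these 6 values only that of SNHG1 passed the test in the fit without a block. As for limits, hosts near 13 RPKM were recorded in steps of 1, and host levels in polyadenylated RNA do not measure transcription, splicing or decay separately.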
